A study of Homo sapiens with 7 samples.

Results

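The HOX cluster genes are the homeobox genes of the 4 HOX clusters, and their mRNA levels and called transcription start sites (TSSs) were described in one breast cancer cell line. Members were all genes whose symbol in the RNA-seq table is HOX followed by a cluster letter from A to D and a paralogue number, which gave 39 of 26175 listed genes: 11 HOXA, 10 HOXB, 9 HOXC and 9 HOXD genes. The series holds 7 samples of T-47D cells, a human luminal breast cancer line. Per the study's methods these were the A1-2 derivative, a stable line that overexpresses the rat glucocorticoid receptor and carries an integrated MMTV luciferase reporter. All samples shared a single growth condition, 10% FBS followed by at least 24 hours in medium with 5% charcoal-stripped serum, so the design holds no treated or untreated group. Used here were one FPKM value per gene over 3 merged RNA-seq replicates and the TSS positions called from Start-seq replicate 1.

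HOX genes encode homeodomain transcription factors that give cells their position along the body axis. Within a cluster the genes lie in the order of their paralogue numbers, and low-numbered genes are in general active towards the head and high-numbered ones towards the tail and the limb ends. In adult tissues, the mammary gland included, each tissue keeps its own set of active HOX genes, with the silent ones typically held under Polycomb marks.

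Start-seq sequences the 5′ ends of short capped nuclear RNAs, so that each call is taken to mark a nucleotide at which transcription started. A gene TSS was called by the authors within 1000 nt of an annotated mRNA start, at positions reached by at least 5 reads. Per the study's methods the position with the most 5′ ends was taken, either of the whole window or of its densest bin. Of these candidates the one nearer the annotated start was kept. An upstream antisense TSS (uaTSS) lies on the opposite strand upstream of a gene TSS, and a downstream antisense TSS (daTSS) lies on the opposite strand downstream of it. FPKM, the count of RNA fragments per length of transcript and per size of the library, is corrected for transcript length, so levels may be set beside each other between genes. The calls carry positions without read counts, and the FPKM carry no value per replicate. Depth is therefore unknown, none of the values below has an error between replicates, and no test between genes or groups was made. Intervals given for shares are exact Clopper-Pearson 95% intervals over genes or calls and cover counting error only.

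The library had the markers of its label. All 8 luminal epithelial markers had an FPKM of at least 1, from 44.1 for ESR1 to 1142 for KRT8, with KRT19 at 936, KRT18 at 555 and GATA3 at 360. Of the basal markers 1 of 4 reached 1 (ACTA2, 3.20), and KRT5 and KRT14 were listed at 0. The mesenchymal list had 1 of 4 at or above 1 (COL1A1, 8.82), the hematopoietic list 1 of 4 (with CD3E at 0) and the endothelial list 0 of 2 (highest 0.00291). The part of other cells in the HOX values was not tested.

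A gene TSS was called at 8 HOX genes, 6 in HOXC and 2 in HOXB, and the start sequences are shown first because all later positions refer to them. Each line gives the 20 bases before and the 10 bases from the called nucleotide, in hg19, 5′ to 3′ on the strand of the gene. Capitals mark the base before the start (-1) and the start itself (+1).

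HOXC13 (chr12:54332671-54332700, plus strand): aagctccagcagatcatgtCAtgacgactt
HOXC11 (chr12:54367063-54367092, plus strand): cgtcgcgcaaggagaggggCGcagatttcg
HOXC10 (chr12:54379031-54379060, plus strand): cctctctctgaaaatgacaTGccctcgcaa
HOXC9 (chr12:54394094-54394123, plus strand): gcggtttggtgccggactgTAgcgattttc
HOXC4 (chr12:54410652-54410681, plus strand): ttgtccgttccgagcgctcCGcagaacagt
HOXC5 (chr12:54427774-54427803, plus strand): cgagggtgcttattgttcgGTccgagcctg
HOXB2 (chr17:46622081-46622110, minus strand): gcctccagcccggcgcctcCAcccttcaga
HOXB7 (chr17:46688833-46688862, minus strand): agtcgtgagccaggctcgcCTcattcctcg

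The usual initiator begins with a pyrimidine followed by a purine at the start. That pair stood at 6 of the 8 HOX gene TSSs (75%, interval 34.9% to 96.8%), against 66.1% of all 10391 gene TSSs and 22.9% of positions 50 nt downstream of them. The exceptions were HOXC5, with a G followed by a T, and HOXB7, with a C followed by a T. Neither TATAA nor TATAT began between -35 and -24 on the gene strand at any of the 8, and these letters stood there at 3.0% of all gene TSSs. The GC box GGGCGG, read on both strands, was found in the 100 nt upstream of 2 of 8 (HOXC5 and HOXB7, 25%, interval 3.19% to 65.1%), against 50.2% of all gene TSSs.

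The 5 HOX gene TSSs with a uaTSS were those of HOXC13, HOXC11, HOXC10, HOXC4 and HOXB2. The antisense starts are printed in the same way, on the strand opposite to the gene.

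uaTSS of HOXC13 (chr12:54332191-54332220, minus strand): tgtaactgggcgcctccgcCTaggcatagg
uaTSS of HOXC11 (chr12:54366854-54366883, minus strand): atcagttcggagcacttcgCAgacgtagga
uaTSS of HOXC10 (chr12:54378512-54378541, minus strand): gggctcaaaacagtcaaatTCaaattaaaa
uaTSS of HOXC4 (chr12:54410321-54410350, minus strand): gaaagaaagcttcaagcacTGagggtcggt
uaTSS of HOXB2 (chr17:46622578-46622607, plus strand): ttaattgattcaaaaacacCAgaggaccac

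The pyrimidine-purine pair stood at 3 of these 5 uaTSSs, and at 64.7% of all 5519 uaTSSs. The other two, at HOXC13 and HOXC10, begin with a pyrimidine. The GC box lay in the 100 nt upstream of 2 of the 5 (HOXC10 and HOXC4), against 49.4% of all uaTSSs.

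HOX mRNA was concentrated in the HOXC cluster. The 9 HOXC genes held 83.1% of the summed FPKM of the 39 genes, HOXB 15.9%, HOXA 0.972% and HOXD 0.027%. HOXC10 alone accounted for 52.3%. Of all 39 genes, 11 had an FPKM of at least 1 (28.2%, interval 15% to 44.9%), against 46.9% of all listed genes and 60.1% of the protein-coding ones. A further 18 lay between 0 and 1, and 10 were listed at 0 (25.6%, interval 13% to 42.1%, against 30.1% of all listed and 17.2% of protein-coding genes). The median HOX gene had an FPKM of 0.0758, against 0.528 over all listed genes and 4.07 over protein-coding genes.

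**Figure D1:**
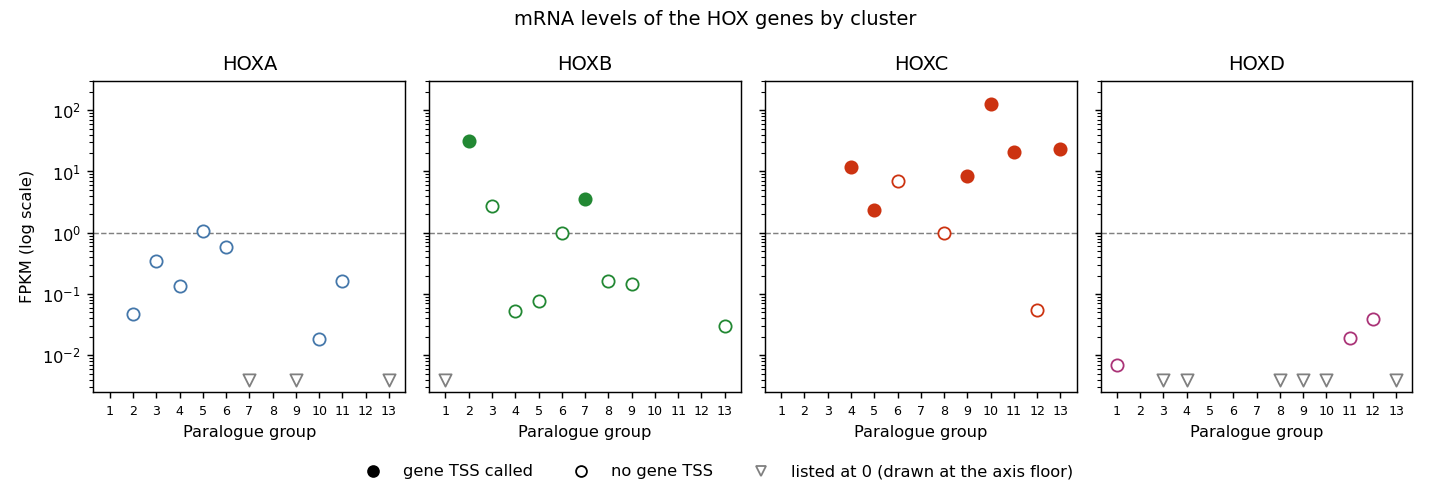
FPKM of the HOX genes described one by one in the text, on a log axis against its paralogue group, 1 panel per cluster, with filled points for genes with a called gene TSS, open points for genes without one, triangles at the axis floor for genes listed at 0 and a dashed line at an FPKM of 1. Filled points occur in HOXB (2) and HOXC (6), HOXC10 is the highest of all at 128, and every HOXD gene lies below 0.04.

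In HOXC (chr12:54332615-54449814), 7 of 9 genes had an FPKM of at least 1 and the cluster median was 8.51. HOXC10 (ENSG00000180818), a posterior gene known from hindlimb and lumbar patterning, had an FPKM of 128, higher than 97.6% of listed genes and 4.11 times that of the second HOX gene, HOXB2. HOXC13 (ENSG00000123364), which is required for hair and nail formation, had 23.3, and HOXC11 (ENSG00000123388) had 21.0. These posterior genes and HOXC4 (ENSG00000198353), at 12.01, exceeded 10.

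HOXC9 (ENSG00000180806), a gene of the thoracic region, had an FPKM of 8.51, HOXC6 (ENSG00000197757) 6.91 and HOXC5 (ENSG00000172789) 2.39. HOXC8, at 0.988, lay just under the level of 1. HOXC12 was the exception of the cluster at 0.0555, although it lies between HOXC13 and HOXC11 on the chromosome, and HOXC11 exceeded it 379-fold. HOXC4, HOXC5 and HOXC6 share exons and were estimated by the authors within a single merged locus, so how their reads were divided among these names is uncertain.

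In HOXB (chr17:46605888-46806112), 3 of 10 genes had an FPKM of at least 1 and the median was 0.157. HOXB2 (ENSG00000173917), an anterior gene known for its hindbrain role, had 31.1 and was the second highest HOX gene. HOXB7 (ENSG00000260027) had 3.59 and HOXB3 (ENSG00000120093) 2.73, while HOXB6 lay just under 1 at 0.987. The other 6 genes ranged from HOXB1, listed at 0, to HOXB8 at 0.166, with HOXB4 at 0.0535, HOXB5 at 0.0758, HOXB9 at 0.147 and HOXB13, the prostate-associated member, at 0.0303. HOXB2 shares its merged locus with HOXB3, and HOXB5 with HOXB6, with the same uncertainty.

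HOXA, on chromosome 7, and HOXD (chr2:176957449-177055635) were low throughout. HOXA5 (ENSG00000106004), a regulator of lung and mammary epithelium, was the one HOXA gene at or above 1, with 1.07, and the 11 genes had a median of 0.0468. HOXA6 followed at 0.577, HOXA3 at 0.346, HOXA11 at 0.166 and HOXA4 at 0.136, while HOXA2 had 0.0468 and HOXA10 0.0185, and HOXA7, HOXA9 and HOXA13 were listed at 0. HOXA3 with HOXA4, HOXA5 with HOXA6 and HOXA7, and HOXA9 with HOXA10 also share merged loci.

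All 9 HOXD genes had an FPKM below 1. HOXD3, HOXD4, HOXD8, HOXD9, HOXD10 and HOXD13 were listed at 0, and HOXD1, HOXD11 and HOXD12 lay between 0.00701 and 0.0394. At values this low, and with the depth unknown, a listed 0 does not separate an unexpressed gene from one below detection.

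Genes with the same number in different clusters are paralogues with closely related homeodomains. At least 1 member reached an FPKM of 1 in 10 of the 13 paralogue groups, and in 9 of those it was exactly 1 member. The exception was group 5, with HOXC5 at 2.39 and HOXA5 at 1.07. In groups 1, 8 and 12 no member reached 1. In each of the 9 groups that have a HOXC gene, that gene was the highest member. In group 12 both members were close to 0, with HOXC12 at 0.0555 and the other at 0.0394. The values of HOXC4, HOXC5 and HOXC6 come from a merged locus. In groups 2, 3 and 7, which have no HOXC gene, HOXB2, HOXB3 and HOXB7 led.

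Over all clusters the levels of low-numbered and high-numbered genes overlapped. The 23 genes of groups 1 to 8 had a median FPKM of 0.166 with 7 at or above 1, and the 16 genes of groups 9 to 13 a median of 0.0349 with 4 at or above 1. On the log2(FPKM + 0.1) scale the mean level of groups 1 to 8 exceeded that of groups 9 to 13 by 0.13. The standard error over genes was 1.03, which describes the spread among genes, and genes are not replicates. The sign of the difference between the means turned under most other settings tried. Within HOXC the median was 21.0 over groups 9 to 13 and 4.65 over groups 4 to 8, but the ranges overlapped: HOXC12 (0.0555) was the lowest gene of the cluster, and HOXC9 (8.51) lay below HOXC4 (12.01). The values of HOXC4, HOXC5 and HOXC6 come from the merged locus described above. Outside HOXC none of the 11 genes of groups 9 to 13 exceeded 0.166, and 4 of the 19 genes of groups 1 to 8 reached 1.

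Gene TSSs were called at 8 of the 39 HOX genes (20.5%, interval 9.3% to 36.5%), against 51.9% of protein-coding genes. The calls lay at the genes with the higher mRNA levels. Of the 11 HOX genes with an FPKM of at least 1, 8 had a gene TSS (72.7%, interval 39% to 94.0%, against 81.1% of protein-coding genes at that level), and of the 28 below 1 none had one (upper limit 12.3%, against 7.93%). HOXC6, HOXB3 and HOXA5 reached 1 without a call of their own.

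HOXC6 could not be separated from HOXC4 at this level of annotation. The call given to HOXC4, at position 54410672 on chromosome 12, lies inside an untranslated exon of HOXC6, 36 nt after the start of the merged locus and 43 nt before the nearest annotated HOXC4 start. The canonical HOXC4 transcript starts far downstream, at position 54447619. The call may belong to either gene name, and the HOXC4 count above includes it.

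In 5 of the 8 genes the called start lay inside the annotated coding sequence of the canonical transcript (62.5%, interval 24.5% to 91.5%), against 5.24% of the 10223 gene TSSs that could be assigned to a gene. At HOXC13 the called nucleotide, 76 nt after the annotated start, is the first base of the start codon, the A of the atg that crosses the capitals in its printed sequence. At HOXC10 it lay 121 nt after the annotated start and 7 nt after the first base of the start codon. At HOXC11, HOXC9 and HOXB2 it lay 57, 141 and 183 nt after that base.

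The remaining gene TSSs were placed differently. At HOXB7 the call lay 463 nt upstream of the canonical start, inside an untranslated exon of HOXB8 on the same strand. HOXB8 itself had an FPKM of 0.166. The HOXC4 call lay in the HOXC6 exon described above, and the HOXC5 call in an intron. The number of reads behind each call was not analysed here. By the authors' rule each call held the most 5′ ends of its window or of the densest bin in it. How far it exceeded other start positions at these promoters was not tested.

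**Figure D2:**
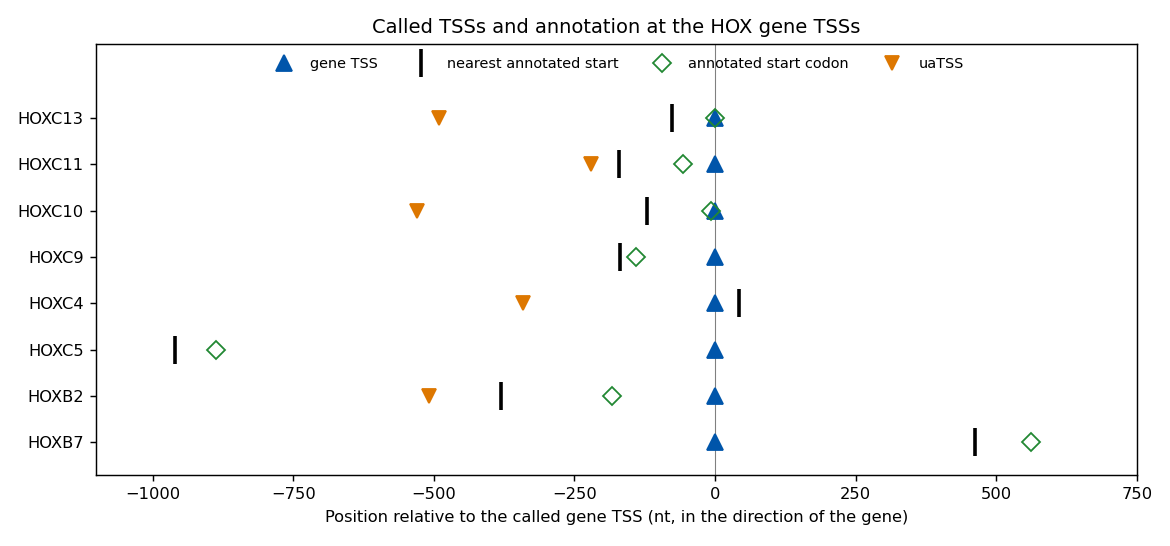
Positions of the nearest annotated start (black bar), the annotated start codon (diamond) and the uaTSS (orange triangle) in nt relative to the called gene TSS (blue triangle at 0), 1 row per HOX gene with a call, negative values being upstream. At HOXC13, HOXC11, HOXC10, HOXC9 and HOXB2 the call lies at or after the start codon, and the start codon of HOXC4, far downstream, is outside the axis.

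The HOXC5 call stood apart from the rest. It lies 960 nt after the HOXC5 start, inside the hairpin of the microRNA gene MIR615 (chr12:54427734-54427829, plus strand), which is located in an intron of HOXC5. The called nucleotide is the first base of the mature hsa-miR-615-3p, whose RefSeq sequence is printed here, with the seed (bases 2 to 8) in capitals, because it continues the last bases of the HOXC5 window above.

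hsa-miR-615-3p: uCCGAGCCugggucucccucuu

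The genome bases from the called start matched this microRNA along all 22 nt. Whether transcription started at this nucleotide was not tested. Among all 10391 gene TSSs this was the single call whose sequence equalled a mature microRNA (0.00962%). The RNA-seq table, made from poly-A enriched RNA, listed MIR615 at 0. Without this call, 7 of 11 HOX genes with an FPKM of at least 1 had a gene TSS (63.6%), 6 of 7 starts had the pyrimidine-purine pair (85.7%) and 5 of 7 lay in coding sequence (71.4%).

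A uaTSS accompanied 5 of the 8 HOX gene TSSs (62.5%, interval 24.5% to 91.5%), against 53.1% of all gene TSSs. Without the HOXC5 call it was 5 of 7 (71.4%). The 5 were the 5 HOX genes with an FPKM of at least 10. The 3 gene TSSs of genes below 10 (HOXC9, HOXB7 and HOXC5) had none. The call given to HOXC4 may belong to HOXC6, at 6.91, and the split at 10 would then not hold. Over all genes, 57.7% of gene TSSs at or above 10 and 45.0% of those below had a uaTSS. The level of 10 was chosen after these values were seen.

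No daTSS was called at any of the 8 HOX gene TSSs (upper limit 36.9%, or 41.0% without HOXC5), against 28.4% of all gene TSSs. With 8 calls a share near that of all gene TSSs lies within the interval. Neither antisense class was found at 3 of 8 (37.5%, interval 8.52% to 75.5%), against 35.9%. None of the 8 had another gene TSS within 5000 nt, whereas 22.5% of all gene TSSs did.

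Of the 5 uaTSSs, 4 lay farther from their gene TSS than the upper quartile of all uaTSSs. Their distances were 220 nt at HOXC11, 342 nt at HOXC4, 491 nt at HOXC13, 508 nt at HOXB2 and 530 nt at HOXC10, a median of 491 nt. Over all 5519 uaTSSs the median was 200 nt, with quartiles of 127 and 329.5 nt. HOXC11 was near the middle of all distances (55.1% shorter), HOXC4 exceeded 76.6%, and HOXC13, HOXB2 and HOXC10 exceeded between 88.8% and 90.8%. As distances are counted from the called gene TSS, the position of that call within the coding sequence enters them.

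Of these antisense starts, 4 of 5 lay inside annotated long noncoding RNA genes (lncRNAs) of the clusters on the same strand (80.0%, interval 28.4% to 99.5%). The share of all uaTSSs inside an lncRNA gene was not calculated. The uaTSS of HOXC10, at position 54378521, lay 21 nt from an annotated start of HOXC-AS3. That of HOXC11, at 54366863, lay 65 nt from an annotated start of HOTAIR, an lncRNA known for its link to Polycomb complexes. The position is in an intron of HOTAIR, which also spans the HOXC11 gene TSS, so HOTAIR reaches farther upstream. The uaTSS of HOXB2, at 46622598 on chromosome 17, lay 273 nt from a start of HOXB-AS1. Thus 3 of 5 (60.0%, interval 14.7% to 94.7%) lay within 300 nt of an lncRNA start on their own strand, against 16.3% of all uaTSSs. No other limit was tried, and the 273 nt of HOXB2 lies close to this one.

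The uaTSS of HOXC13, at 54332200, fell in an intron of HOXC13-AS, 1227 nt from its start. That of HOXC4, at 54410330, was the one outside an lncRNA gene of its strand, 16536 nt from the start of HOXC-AS1.

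The lncRNAs opposite these promoters were also in the mRNA table. Of the 19 noncoding RNA and PRAC genes of the clusters, 16 were listed. An FPKM of at least 1 was reached by 6 of them, against 46.9% of all listed genes. The 6 were HOTAIR at 22.2, HOXC-AS3 at 20.8, HOXC-AS1 at 11.5, HOXC13-AS at 10.3, HOXB-AS1 at 3.87 and HOXC-AS2 at 3.46. All but HOXB-AS1 belong to HOXC. The FPKM of HOTAIR was close to that of HOXC11 (21.0), while HOXC-AS3 lay below HOXC10 (128), HOXC13-AS below HOXC13 (23.3) and HOXB-AS1 below HOXB2 (31.1). These genes overlap in part on opposite strands. The loci given with the FPKM of HOXC11, HOXC13 and HOXC10 start 10991, 3579 and 1316 nt before the called gene TSSs. How reads were divided between these genes and the lncRNAs is uncertain. Per the study's methods the libraries kept strand, whereas the strand setting of the FPKM estimate was not given in the sources used here.

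Listed at 0 were HOTTIP, HOTAIRM1, HOXA-AS2 and HOXA10-AS in HOXA, HOXD-AS2 in HOXD, and PRAC1 and PRAC2 beside HOXB13. HOXB-AS3 (0.211), HOXA11-AS (0.0908) and HOXA-AS3 (0.00669) were low. HOXD-AS1, HOXB-AS2 and HOXB-AS5 were not listed under these symbols.

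Close to the HOX starts the sequence had less G and C than at most starts. In the 100 nt centred on the TSS the 8 HOX gene TSSs had a mean GC content of 60.8% ± 6.92 (SD over TSSs, n = 8), from 52.0% at HOXC4 to 71.0% at HOXC5, against 67.2% ± 9.02 over all gene TSSs. Of the 8, 7 lay under the median of all, 68.0%. With 500 nt on each side the means were closer, 59.5% ± 5.16 against 62.9% ± 7.8. As 5 of the 8 calls lie in coding sequence, these windows include it. The HOX uaTSSs had 53.0% on average (48.0% to 64.0%) against 64.9% over all uaTSSs, and 5 of 5 lay under the median of 65.0%. The observed over expected CpG ratio in 1000 nt, a measure of CpG islands, had a median of 0.723 at HOX gene TSSs and 0.782 at all, and of 0.558 at HOX uaTSSs and 0.784 at all.

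The clusters without calls each lay in a gap of the gene TSS map longer than the median gap. Each of them is itself longer than the median gap, so this follows from the absence of calls. HOXA, at 107.1 kb, lay in a gap of 798.2 kb between the gene TSSs of SKAP2 (FPKM 11.1) and HIBADH (84.5), and 819 of 10368 gaps on the genome were as long or longer. HOXD, at 98.19 kb, lay in a gap of 267.4 kb between KIAA1715 (7.55) and MTX2 (35.4), with 2273 gaps as long. The median gap was 77.8 kb. HOXC, of a like 117.2 kb, held 6 gene TSSs and 4 uaTSSs, and HOXB, at 200.2 kb, held 2 gene TSSs and 1 uaTSS.

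Genes whose proteins act with or on HOX genes are set beside the protein-coding genes as a whole, of which 60.1% had an FPKM of at least 1 and 51.9% a gene TSS, with a median FPKM of 4.07. HOX proteins bind DNA together with TALE homeodomain partners. Of these 9 cofactors 7 had an FPKM of at least 1 and 6 a gene TSS, with PBX2 at 46.5, PBX3 at 37.0 and MEIS2 at 4.59 among them. Their median of 3.95 and their counts were near those of protein-coding genes.

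Polycomb repressive complex 2 methylates histone H3 lysine 27. All 10 of its listed genes reached 1, against the 60.1% of protein-coding genes, with a median of 19.1, led by RBBP7 (232.6), PHF19 (70.1), SUZ12 (30.2) and EED (27.4). Of the genes of Polycomb repressive complex 1, some forms of which bind that mark, 15 of 16 did. Their median was 19.8, led by PCGF5 (53.1), PCGF2 (48.1), RING1 (40.1) and CBX6 (26.8). The MLL complexes, which oppose Polycomb at HOX genes, had 10 of 10 at or above 1 and a median of 21.0, led by DPY30 (62.2), MEN1 (45.7), WDR5 (42.4) and ASH2L (30.1). The H3K27 demethylases KDM6A (11.2) and KDM6B (6.74) were present as well.

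No mRNA was listed for the evolutionary relatives and neighbours of the HOX genes. All 8 ParaHox and HOX-linked homeobox genes (GSX1, GSX2, PDX1, CDX1, CDX2, CDX4, EVX1 and EVX2) were listed at 0 and none had a gene TSS, against 17.2% of protein-coding genes listed at 0 and 51.9% with a gene TSS. EVX1 and EVX2 lie next to HOXA13 and HOXD13.

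**Figure D3:**
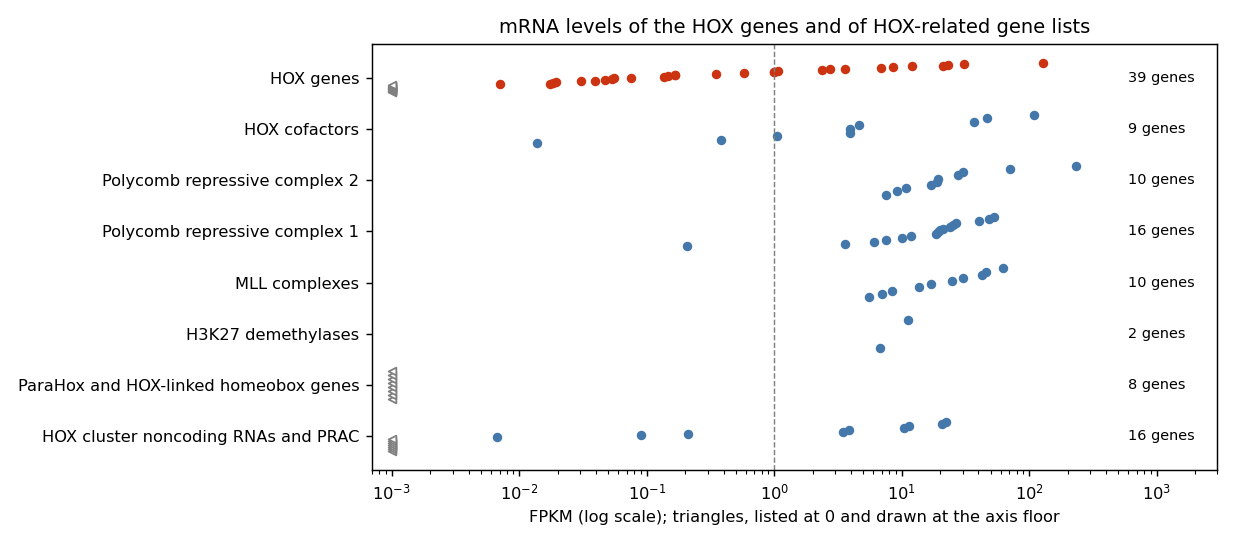
FPKM on a log axis of the 39 HOX genes (red) and of the members of 7 related gene lists (blue), 1 point per listed gene, with triangles at the axis floor for genes listed at 0 and a dashed line at 1. The HOX genes spread from 0 to 128, the Polycomb and MLL genes lie above 1 except for PHC1 (0.206), and all 8 ParaHox and HOX-linked genes are at 0.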

How the data were processed

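RNA-seq (3 replicates) and Start-seq replicate 1 of the 7 samples were used. MNase-seq, FAIRE-seq and Start-seq replicate 2 were not analysed here. The authors removed reads with a mean quality below 20, aligned RNA-seq reads, removed duplicates, merged the replicates and deposited 1 FPKM value per gene, and 0 per-sample columns were left unmapped. The deposited TSS calls are 1-nt intervals on build hg19 whose score is 0 in every row. The submitters' processing notes name cutadapt 1.2.1, Bowtie 0.12.8, TopHat2 2.0.4, Cufflinks 2.2.1 and Picard 1.118. Of the symbols in the deposited FPKM table, 28 had been turned into dates and 2 were duplicated, none of them a HOX gene.

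Listed genes were matched to GENCODE version 44 lifted to GRCh37 by symbol (23352 genes, 89.2%). A gene TSS was given to the nearest annotated start of a protein-coding gene on its strand, within 1000 nt of the locus, as the calls were guided by RefSeq mRNAs. The uaTSSs and daTSSs were joined by the identifier shared between the lists. Sequence was read from GRCh37, and the microRNA from the RefSeq table of build GRCh38.p14. An FPKM of at least 1 counted as detected, and means of log2 values used a pseudocount of 0.1. Python 3.11.15, numpy 2.4.6, pandas 2.3.3, scipy 1.17.1 and matplotlib 3.10.9 were used. Assignment and sequence features were tested on simulated data.

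Every HOX gene with an FPKM of at least 1 or a gene TSS was named with its values, and the others in groups with their range. Each gene list gave up to 4 members with the highest FPKM, those at 0 and those not listed, and other members were named after their values were seen. A few members are not reported here by name. Members and lists were chosen with earlier results of these data known. Alternatives were other FPKM levels, filters, pseudocounts, groupings, assignment rules and sequence windows.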

Additional observations from a re-analysis of the deposited data

How the results depend on the processing

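Of 27 alternatives, 19 left their result within its interval or SD over genes or calls, or within 1.5 times for a count. The mean log2 FPKM of paralogue groups 1 to 8 minus that of groups 9 to 13, 0.132 as reported, became -0.277 with a pseudocount of 1, -1.69 over genes with an FPKM of at least 0.1, -0.0861 without HOXA, -0.412 without HOXB, -0.343 without HOXD, -0.0714 for groups 1 to 9 against 10 to 13, and 1.48 without HOXC. The cause was not tested. The median HOX FPKM of 0.0758 was 16.5 over the genes with a gene TSS, all of which have an FPKM of at least 1, and 0.346 over genes above 0, where that of HOXA rose from 0.0468 to 0.151 and that of HOXD from 0 to 0.0195. The count of detected HOX genes was 14 at an FPKM of 0.5 and 10 at 2. HOX genes with a gene TSS numbered 7 inside the merged locus alone, where HOXB7 was lost, and 7 when the nearest start of any listed gene was used, where HOXC5 was lost to MIR615, an alternative chosen after seeing the data. Within 400 nt, 25% of HOX gene TSSs had a uaTSS, close to the lower limit of the interval reported for 62.5% (24.5% to 91.5%). The 53.1% of all gene TSSs with a uaTSS was not recalculated at this limit. Whether the HOX share stays above the share of all gene TSSs within 400 nt was therefore not tested. No paired analysis was possible because the FPKM are a single value over merged replicates and the calls come from 1 library, and for the same reason no replicate could be left out. Calls without read counts, and 8 HOX gene TSSs, limit every share above.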
